A study of Mus musculus with 8 samples.

Results

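Genes of complement component C1q and of phagocytes were described here by their N6-methyladenosine (m6A) peaks in mouse colonic epithelial cells with and without Mettl14. m6A is a methyl mark on adenosines of mRNA, and a peak is a stretch of RNA that an m6A antibody enriched over unenriched RNA (the input). The members are 10 genes taken by name from the authors' deposited table of peaks that differed between the genotypes: the C1q chains C1qa, C1qb and C1qc, and Mpeg1, Ccr1, Ncf4, Tmem119, Apoe, Ccl9 and Tnfaip8l2. They carry 13 of the 195 listed peaks, and they are 10 of the 168 listed genes. The genes were picked because they were in that table, so the sign, size and false discovery rate (FDR) of their genotype difference chose them and are given as a description, with no test.

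The 8 samples are 3 m6A immunoprecipitates and 1 input from Mettl14 f/f; CDX-cre mice (knockout), and 3 immunoprecipitates and 1 input from Mettl14 f/f mice (control). All were untreated C57BL/6 mice at postnatal week 6, and both genotypes carry the floxed Mettl14 alleles. Mettl14 is a subunit of the complex that writes m6A. By its name the Cre transgene is driven by a Cdx gene, a family of intestinal epithelial transcription factors, and the labels do not say which cells of the preparation had lost Mettl14.

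Each genotype had 1 input, so enrichment over input rests on inputs without replicates. The authors' deposited table holds 1 value of each measure per peak and none per sample, and enrichment is not given by genotype. Read depth, the spread between replicates and the level of any RNA are therefore unknown, and no error, replicate test or check of the labelled cell type against its markers could be made. The sign of the log2 fold change between genotypes is given as deposited. Positive likely means knockout over control, since the deletion is the named manipulation, but the file does not say so. Altered methylation and altered RNA amount cannot be told apart from this value. In a bulk preparation a changed number of cells of a type and a changed RNA amount per cell cannot be told apart either.

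C1q is the recognition molecule of the classical complement pathway, a bundle of A, B and C chains that binds antibody on a surface and activates the proteases C1r and C1s. In most tissues macrophages make it, and it also helps them to take up dying cells. The other members encode a pore-forming protein (Mpeg1), a chemokine receptor and ligand (Ccr1, Ccl9) and an oxidase subunit (Ncf4) of phagocytes. They also encode a lipid carrier (Apoe), a membrane protein (Tmem119) and a brake on immune receptor signalling (Tnfaip8l2). Phagocytes are not epithelial cells, although some members, Apoe and Tmem119 among them, are also made outside the myeloid lineage.

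All 13 member peaks were positive in the authors' deposited table, where 61.5% of the listed peaks were (120 of 195). Because the members were chosen with their values known, this uniform sign supports nothing by itself. Their log2 fold changes ran between 1.56 and 4.65, with a median of 1.97, against a median of 1.23 for the 107 positive peaks of other genes. Among the members 13 of 13 peaks reached a log2 fold change of 1. In the positive direction 39% of all listed peaks did, and 63.3% of the positive ones. A log2 fold change of 2 was reached by 6 of 13, against 15.4% of all listed peaks and 25% of the positive ones. An FDR of 0.01 or less was met by 10 of the 13 (76.9%), against 53.3% of all listed peaks and also 53.3% of the positive ones. The second peak of Mpeg1 is counted there at 0.01 itself, from a rounded log10 value, so it may lie on either side. The highest member FDR was 0.0355, for Tnfaip8l2, the list ends at 0.0501, and peaks beyond that are not analysed here.

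The listing itself was rare. The relation of p-value, rank and FDR over the 195 listed peaks is that of a Benjamini-Hochberg adjustment over about 22514 tested peaks (median of 195 estimates, 19905 to 25179, each from log10 values that the file rounds). By that estimate 0.866% of the tested peaks were listed, and 0.533% were listed with a positive sign.

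**Figure D1:**
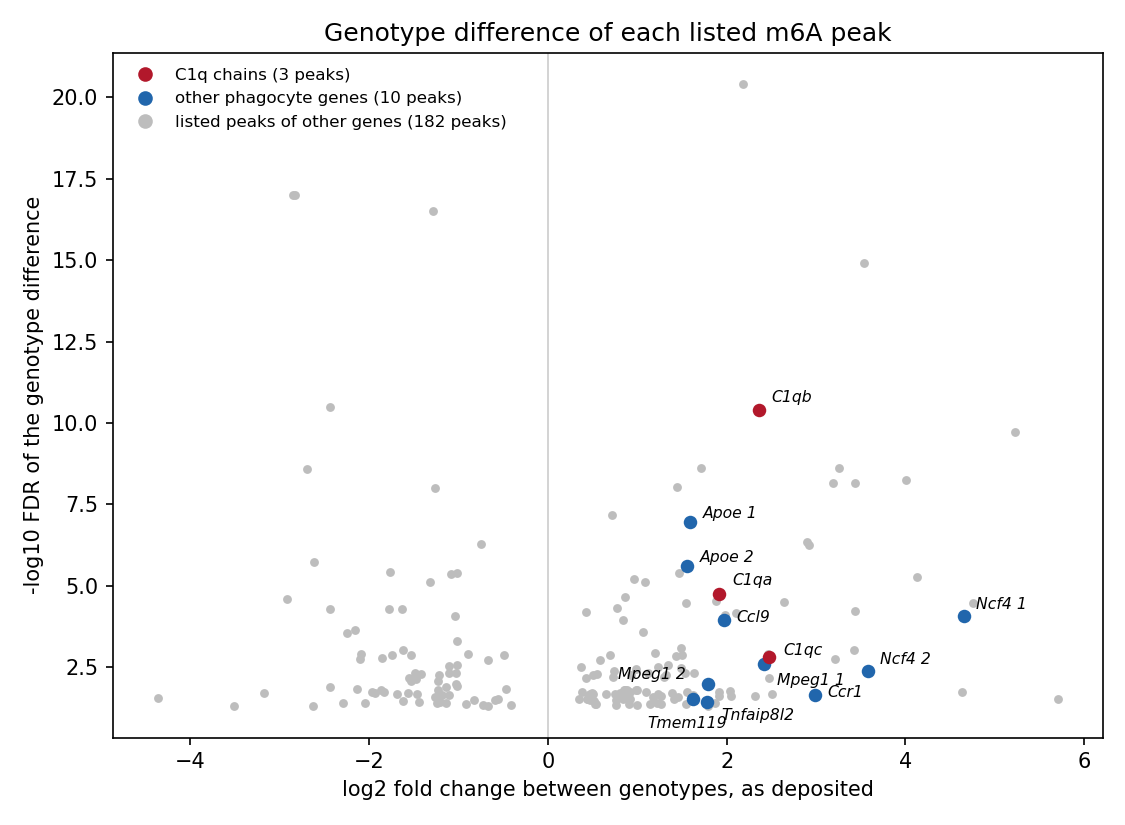
Each point is 1 of the 195 listed peaks, with the log2 fold change between genotypes as deposited on the x axis and −log10 of its FDR on the y axis; red points are the C1q chains, blue points the other phagocyte genes and grey points all other genes, and 1 and 2 number the peaks of a gene from its 5′ end. All 13 member peaks lie right of 0, C1qb stands highest among them (FDR 3.98e-11), and the 2 peaks of Ncf4 lie farthest right (3.58 and 4.65).

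The 3 C1q genes lie side by side on chromosome 4 of mouse build mm10, on the minus strand, within 18719 nt (136880126 to 136898844) that hold 0 other RefSeq genes. From the 5′ end of their strand the order is C1qa, C1qc and C1qb. C1qa and C1qc are 2979 nt apart, and C1qc and C1qb are 3600 nt apart. Each gene had 1 listed peak and the peaks did not touch, with 3380 nt between those of C1qa and C1qc and 8130 nt between those of C1qc and C1qb.

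C1qa, the A chain, had a log2 fold change of 1.92 in the authors' deposited table (3.78-fold, FDR 1.74e-05), at rank 33 of 195 from the most positive. Its peak (136896237 to 136898815) was enriched 17-fold over input and had 3 exon blocks of 70, 170 and 492 nt from 5′ to 3′, separated by 901 and 946 nt. It began 29 nt from the 5′ end of the gene, stopped 321 nt short of the 3′ end, and its span covered 88.1% of the gene.

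C1qb, the B chain, had the smallest FDR of the 13 member peaks in the authors' deposited table, 3.98e-11 (rank 7 of 195), at a log2 fold change of 2.36 (5.13-fold). Its peak (136880145 to 136882227) had the lowest enrichment of the 3 chains, 5.63-fold. Unlike the peaks of the other chains it left out the 5′ part of its gene: it began 3973 nt from the 5′ end and ended 19 nt from the 3′ end. Its 2 blocks of 101 and 725 nt lay 1257 nt apart, and its span covered 34.3% of the gene.

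C1qc, the C chain, had the highest log2 fold change of the chains, 2.47 (5.54-fold, rank 21 of 195), with the largest FDR of the chains, 0.00151, in the authors' deposited table. Its peak (136890358 to 136892856) was enriched 10.7-fold and was the narrowest of the chains, with blocks of 13, 185 and 242 nt. The gaps between these blocks were 280 and 1779 nt. The peak lay between 80 nt from the 5′ end and 557 nt from the 3′ end of the gene and covered 79.7% of it.

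The 3 chains thus spanned 0.55 on the log2 scale, while their FDRs spanned several orders of magnitude. The order of the chains by FDR (C1qb, C1qa, C1qc) matched their order by blocked width, 826, 732 and 440 nt, and not their order by enrichment. No error is attached to these values, so whether the chains differ from each other is not known. In the order of the log2 fold change, the listed peaks next to C1qc were those of C1s1 at 2.47 and Plaur, the urokinase receptor gene, at 2.46. Those next to C1qb were the first peak of Mpeg1 at 2.42 and a Ccl25 peak at 2.32, and those next to C1qa were Ccl9 at 1.97 and H2-M2, a nonclassical MHC class I gene, at 1.91.

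No sequence before the transcript start of C1qa was at hand. For C1qb and C1qc the bases before the starts are shown. They are the 250 bases before each start in RefSeq on GRCm38.p6 (the assembly of mm10), on the minus strand, at chr4:136886201-136886450 for C1qb and chr4:136892915-136893164 for C1qc. Capitals mark GAGGAA, a core of sites of the myeloid factor PU.1, or TTCCTC, the same letters on the other strand.
C1qb: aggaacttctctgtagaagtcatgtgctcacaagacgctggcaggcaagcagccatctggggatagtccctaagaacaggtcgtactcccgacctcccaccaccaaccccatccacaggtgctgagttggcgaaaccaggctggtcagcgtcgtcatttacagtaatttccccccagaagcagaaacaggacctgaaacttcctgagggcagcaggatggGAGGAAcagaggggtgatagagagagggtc
C1qc: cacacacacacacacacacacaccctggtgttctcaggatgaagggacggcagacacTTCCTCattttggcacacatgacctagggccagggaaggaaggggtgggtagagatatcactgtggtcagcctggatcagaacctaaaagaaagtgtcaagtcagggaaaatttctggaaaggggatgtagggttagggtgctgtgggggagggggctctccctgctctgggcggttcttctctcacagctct

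The match begins 30 bases before the start in C1qb and 193 bases before it in C1qc, on opposite strands. RefSeq windows of 250 bases before and 50 after a start were at hand for 7 of the 10 member genes. C1qa, Ncf4 and Tmem119 had none and were not searched. GAGGAA was found on either strand in 5 of their 9 windows, in C1qb, C1qc, Apoe and Ccr1, and in 28.3% of all 32851 windows. TGACTCA, the AP-1 site, was in 0 of the 9 and in 5.2% of all. Such short matches are a description of the letters and not of binding.

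**Figure D2:**
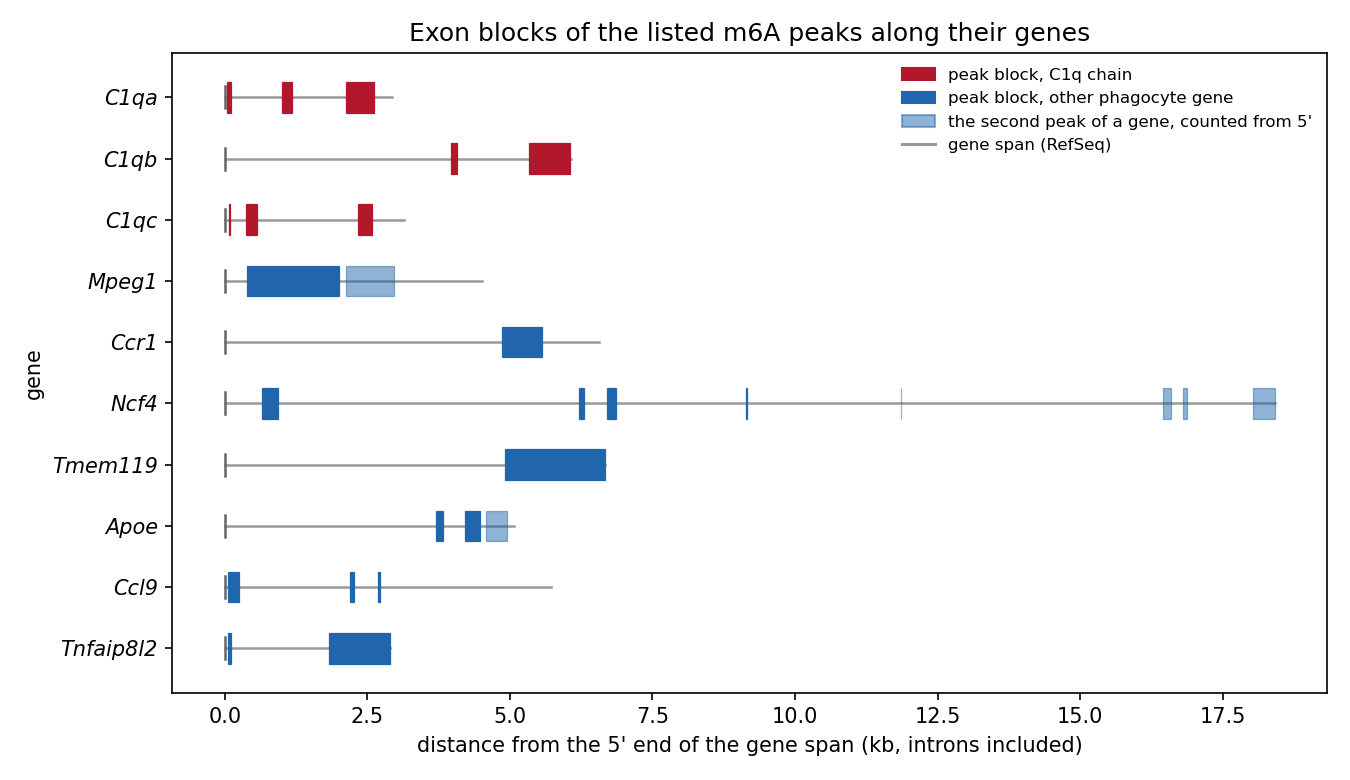
Each row is a member gene drawn from its 5′ end at 0, with distance along the gene span in kb (introns included) on the x axis; the grey line is the RefSeq span and boxes are the exon blocks of the listed peaks, red for C1q chains, blue for the other genes and pale blue for the second peak of a gene. In C1qa, C1qb and C1qc the widest block is the one nearest the 3′ end, while Mpeg1, Ccr1 and Tmem119 show only unbroken blocks.

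Mpeg1, which encodes the pore-forming protein perforin-2 of phagocytes, had 2 listed peaks on chromosome 19 (plus strand), each a block without a gap. The peak nearer the 5′ end (12461159 to 12462774) was 1616 nt wide, enriched 39.2-fold, and had a log2 fold change of 2.42 (FDR 0.00257) in the authors' deposited table. The other (12462893 to 12463730) was 838 nt wide, enriched 22.3-fold, and stood at 1.79 (FDR 0.01). The gap between them was 118 nt. The gene's last 1555 nt held no listed peak.

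Ccr1, a receptor for CC chemokines on myeloid cells, had 1 peak on chromosome 9 (123963139 to 123963824, minus strand) with a log2 fold change of 2.99 (7.94-fold, FDR 0.0229) in the authors' deposited table. This was the highest value among the member peaks of 1 block. The block of 686 nt was enriched 59.2-fold and ended 1013 nt from the 3′ end of the gene. Ccl9, a mouse chemokine that binds this receptor, was at 1.97 (3.92-fold, FDR 0.00011). Its peak on chromosome 11 (83575914 to 83578576, minus strand) differed in build, with 3 blocks of 188, 72 and 38 nt that began 60 nt from the 5′ end and stopped 2997 nt short of the 3′ end. At 298 nt in all it was the narrowest member peak, and it was enriched 4.43-fold, the median of the whole list.

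Ncf4, the p40phox subunit of the NADPH oxidase with which phagocytes make superoxide, had the largest differences of the member genes. Its 2 peaks lay on chromosome 15 (plus strand), 2702 nt apart, with 4 blocks each. The peak nearer the 5′ end (78244811 to 78253315) had a log2 fold change of 4.65 in the authors' deposited table (25.1-fold, FDR 8.13e-05), rank 4 of 195, with blocks of 277, 85, 154 and 19 nt. The other (78256018 to 78262580) was at 3.58 (12-fold, FDR 0.00398), rank 8 of 195, with blocks of 12, 131, 66 and 385 nt, and it ended 2 nt from the 3′ end of the gene. Between them the peaks reached from 647 nt inside the 5′ end almost to the 3′ end of a gene of 18419 nt, the longest of the members. Enrichment was 14.1-fold and 10.2-fold, within the range of the C1q chains, and the log10 p-value of the enrichment of the peak nearer the 3′ end, -7.25, was the weakest of the 13. Listed peaks of other genes within 1 Mb of Ncf4 had smaller values, 0.88 for Nol12 and 0.46 for Myh9. Within 1 Mb of Ccl9, Wfdc18 was at 1.79 (FDR 0.0479), and no other member outside the C1q genes had a listed neighbour at that distance.

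Apoe, a carrier of cholesterol and other lipids that macrophages secrete, had the smallest differences of the members and the lowest enrichment, yet small FDRs. Its 2 peaks lay 119 nt apart on chromosome 7 (minus strand) near the 3′ end of the gene. The peak nearer the 5′ end (19696842 to 19697606, blocks of 128 and 262 nt) was enriched 2.6-fold and had a log2 fold change of 1.59 (FDR 1.07e-07) in the authors' deposited table. The other (19696364 to 19696722, 1 block of 359 nt) was enriched 3.04-fold and stood at 1.56 (FDR 2.45e-06). The peaks thus differed by 0.03 on the log2 scale, against 0.63 between the peaks of Mpeg1 and 1.07 between those of Ncf4.

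Tmem119, a membrane protein known from microglia and osteoblasts, and Tnfaip8l2 (TIPE2), an inhibitor of immune receptor signalling, were the most enriched member genes and had the largest FDRs. The Tmem119 peak on chromosome 5 (113793729 to 113795480, minus strand) was 1 block of 1752 nt that reached the 3′ end of the gene, enriched 81.7-fold, with a log2 fold change of 1.62 (FDR 0.0302) in the authors' deposited table. The Tnfaip8l2 peak on chromosome 3 (95139521 to 95142360, minus strand) was enriched 74.2-fold, with a log2 fold change of 1.78 (FDR 0.0355). It had blocks of 46 and 1076 nt and its span covered 98.1% of the gene. At its 3′ end the RefSeq span of Tnfaip8l2 overlaps that of Lysmd1 by 5 nt, the only overlap of a member gene with another RefSeq gene.

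The block of 46 nt at the 5′ end of the Tnfaip8l2 peak is the only stretch of a member peak for which sequence was at hand, since it falls inside a RefSeq promoter window. Its first 30 bases, at chr3:95142331-95142360 on the minus strand of GRCm38.p6, are shown for that reason.
Tnfaip8l2: gctctcagaaacatccaaggccagactggc
GGAC, the core letters of the commonest m6A consensus, occurred 0 times in the 46 nt on the transcript strand. The larger block of this peak, with 95.9% of its width, could not be searched.

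The C1q chains lay inside the range of the other phagocyte genes in size of difference and in enrichment. Their log2 fold changes were between 1.92 and 2.47 with a median of 2.36, against 1.56 to 4.65 with a median of 1.88 for the 10 peaks of the other 7 genes. Enrichment was 5.63 to 17-fold (median 10.7) for the chains and 2.6 to 81.7-fold (median 18.2) for the other genes. All 3 C1q peaks had over 1 block. The other phagocyte peaks of over 1 block had a median of 10.2-fold, and those of 1 block 39.2-fold. The FDR ranges also overlapped, 3.98e-11 to 0.00151 for the chains and 1.07e-07 to 0.0355 for the other genes. With 3 and 10 peaks chosen by name, these differences were not tested.

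In build the chains shared some features and differed in others. All 3 C1q peaks had over 1 block, their widest block was the last one before the 3′ end, and they ended within 1000 nt of the gene's 3′ end. Over 1 block was the usual build of positive peaks, with 75% of them and 52.3% of all listed peaks. An end within 1000 nt of the 3′ end was found in 39.2% of the positive peaks and 32.8% of all listed ones. C1qb stood apart from the other chains in its span of 34.3% of the gene, against 79.7% for C1qc and 88.1% for C1qa. Of the 10 peaks of the other phagocyte genes, 5 had over 1 block, and in 3 of those 5 (Ncf4, Apoe and Tnfaip8l2) the widest block came last. Among the 82 positive peaks of the remaining genes with over 1 block, it came last in 23. Of peaks with over 1 block, 3 of the 5 of the other phagocyte genes (60%) came within 1000 nt of the 3′ end, against 26.8% in the remaining genes. Among peaks of 1 block the order was reversed, with 40% in the other phagocyte genes and 68% in positive peaks of the remaining genes. Over peaks of any block number these shares were 50% and 36.4%. The spans of the other phagocyte peaks covered a median of 30.95% of the gene, and those of positive peaks in the remaining genes 35.5%. For peaks of over 1 block, the build of all C1q peaks, these medians were higher, 46.2% and 41.6%. None of these features was tested. The member genes were short, with a median span of 5394 nt (2896 to 18419), against 8893 nt for the other genes with a positive peak.

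Block number went along with enrichment among the member peaks, which was not tested. Those of 1 block came from 4 genes, and Apoe had a peak of either kind. The 5 member peaks of 1 block had a median enrichment of 39.2-fold (3.04 to 81.7), against 7.62-fold for the 25 positive peaks of 1 block in other genes. The 8 member peaks of over 1 block had a median of 10.45-fold (2.6 to 74.2), against 4.53-fold for 82 such peaks of other genes. The exception among peaks of 1 block was that of Apoe at 3.04-fold, and among the wider-spread peaks that of Tnfaip8l2 at 74.2-fold.

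**Figure D3:**
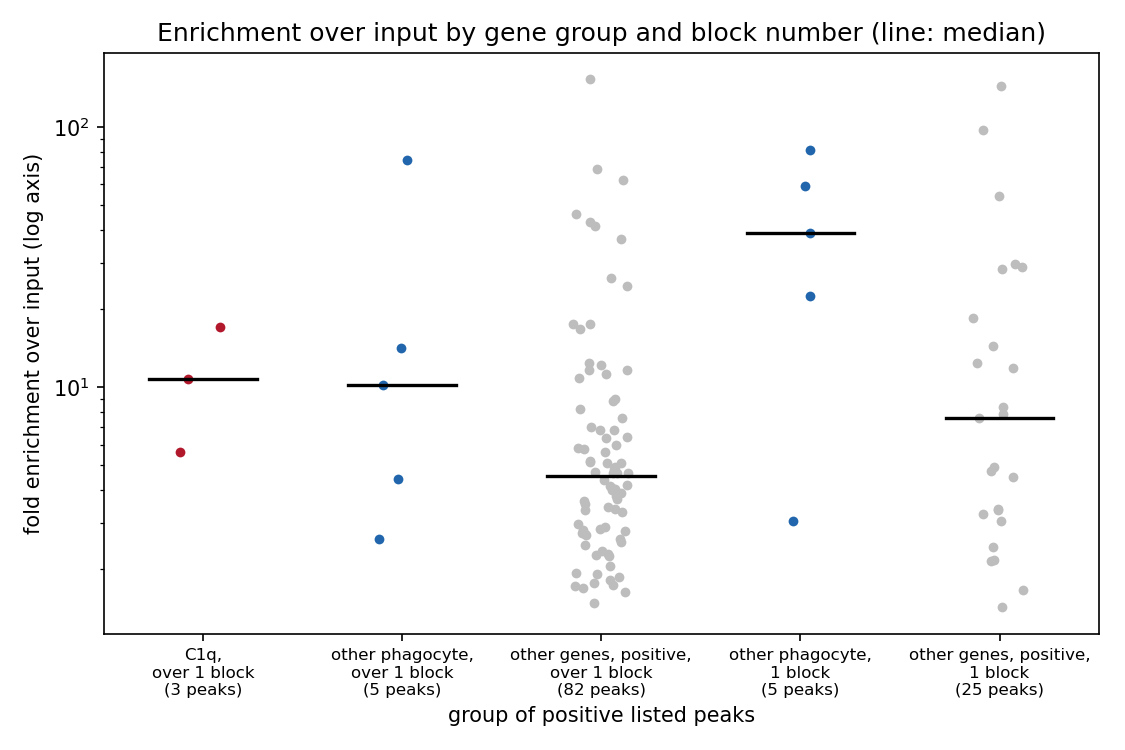
Points are positive listed peaks, with fold enrichment over input on a log axis, split by gene group and by whether the peak has over 1 exon block or 1; lines are medians. The 3 C1q peaks lie between 5.63 and 17-fold, and 4 of the 5 phagocyte peaks of 1 block lie at 22.3-fold or above, with Apoe at 3.04-fold.

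The most enriched member peaks did not have the smallest FDRs. Tmem119, Tnfaip8l2, Ccr1 and the wider Mpeg1 peak, each enriched at least 39.2-fold, had FDRs of 0.0302, 0.0355, 0.0229 and 0.00257. C1qb, the 2 Apoe peaks and Ccl9, each enriched at most 5.63-fold, had FDRs of 0.00011 or less. The reads behind these ratios and FDRs are not in the table.

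Other genes of the same pathways were counted against a share of 0.74% over the genome, since 162 of 21900 protein-coding RefSeq genes had a listed peak. That share includes genes with no tested peak, so it is a rough guide. Of 39 complement genes other than the C1q chains 2 had a listed peak, both positive: C1s1, the mouse gene of the C1s protease that C1q activates, at 2.47 (FDR 0.00661), and Clu, which encodes clusterin, an inhibitor of the terminal complement complex, at 2.92 (FDR 5.5e-07). C1s1 had 1 block of 836 nt enriched 29.6-fold, and Clu 4 blocks enriched 24.5-fold, above the 17-fold of C1qa. C1ra, C2, C3, C4b and the receptors C3ar1 and C5ar1 were not listed.

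Of 30 CC chemokines and their receptors other than Ccl9 and Ccr1, 2 were listed, both positive, where 64.9% of all listed genes had a positive peak. They were Ccl20, a ligand of CCR6 made by epithelium, at 5.22 (FDR 1.91e-10), and Ccl25, a ligand of CCR9 made by gut epithelium, with peaks at 3.19 (FDR 6.92e-09) and 2.32 (FDR 0.024). Of 14 NADPH oxidase genes other than Ncf4, among them Cybb, Nox1 and Duox2, 0 were listed; with 0.74% of genes listed, most lists this short would hold none.

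Of 17 genes of apolipoproteins, their receptors and cholesterol efflux other than Apoe, 2 were listed, with opposite signs. These were Apobr, a macrophage receptor for apolipoprotein B, at 4.01 (FDR 5.5e-09, enriched 68.8-fold), and Apob, the structural protein of chylomicrons, at -1.26 (FDR 0.0251). Beside Mpeg1 0 of 11 pore-forming immune proteins, beside Tnfaip8l2 0 of 3 genes of its family, and beside Tmem119 0 of 9 microglia and osteoblast genes had a listed peak. For an unlisted gene the table does not tell a peak that missed the threshold apart from no tested peak at all.

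Of 30 markers of macrophages and monocytes, among them Adgre1, Csf1r, Cd68, Lyz2 and Mertk, 0 were listed. Of 44 markers of dendritic cells, neutrophils, lymphocytes, mast cells or all leukocytes 0 were listed as well. With 0.74% of genes listed, most lists of these lengths would hold no listed gene, so these counts say nothing about the cell types. Of 16 colon epithelial markers Chga, which encodes chromogranin A of enteroendocrine cells, was listed at -0.49 (FDR 0.00129), and of 14 stromal, endothelial and muscle markers Col1a1, a chain of type I collagen, at 1.61 (FDR 0.0347). The table holds no RNA levels, and the part of macrophage RNA in the member values was not tested.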

How the data were processed

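The authors' deposited table gives, per the file headers, a fold enrichment over input (a linear ratio), a score that is the p-value of that enrichment with its log10, and for the genotype difference a log2 fold change and the log10 of a p-value and FDR; log10 values were turned into linear ones here. Per the submitters' processing notes, R 3.6, HOMER 4.10.0, HISAT2 2.1.0 and Trim Galore 0.6.5 were used on mm10; the peak caller and the way replicates were combined are not given in the sources used here. Nothing in the labels says whether replicates came from separate mice. Members were matched by name and, for 10 of 10, by symbol to RefSeq of GRCm38.p6. Coordinates are 1-based. The RefSeq tables at hand hold gene spans, not exons, so blocks were taken as deposited and no untranslated or coding region was assigned. Width is the sum of the blocks, and positions run along the gene span. The estimate of the number of tested peaks assumes a Benjamini-Hochberg adjustment and a list that holds every peak passing the FDR limit. On 3 simulated sets of p-values built to meet these assumptions the median estimate was off by at most 0.28%. That checks the formula only and cannot tell whether the assumptions hold for these data. The planned motif count in peaks and the identity between C1q proteins were not run, for want of their sequences. Named genes are the members, listed genes of 7 gene lists and 9 marker lists, the neighbours of the C1q chains in the order of the log2 fold change and listed genes within 1 Mb; unlisted list genes were named as examples after the table was seen. Members and lists were chosen with earlier results of these data known. Python 3.11.15, pandas 2.3.3 and numpy 2.4.6 were used.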

Additional observations from a re-analysis of the deposited data

How the results depend on the processing

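The member peaks were 13, and 10 at an FDR of 0.01 or less, 11 with at least the median enrichment of the list, 13 at an absolute log2 fold change of 1 and 13 when matched by position, all positive; a minimum of 2 left 6 peaks, fewer by construction. The median log2 fold change of the C1q chains was 2.36 and could not change under the alternatives run, since all 3 peaks pass the stricter FDR and each gene has 1 peak. That of the other phagocyte peaks, 1.88, was 1.97 at the stricter FDR, 2.195 with the minimum enrichment and 1.97 with 1 mean value per gene, an alternative chosen after seeing the data, which also gave a median enrichment of 30.75-fold in place of 18.2. With introns included, median widths were 2499 nt for the chains and 1684 nt for the other peaks, in place of 732 and 640 nt. At the midpoint of the joined blocks, the median position was 76.5% of the gene span for the chains, in place of 45.0%. For the other peaks it was 80.0%, in place of 67.8%. In the chains the widest block comes last, and it counts for more at this midpoint. The other peaks moved in either direction or stayed, with Tnfaip8l2 going from 51% to 80.6% and Ccl9 from 24.3% to 3.65%. No paired analysis was possible because no column belongs to a sample, and no replicate could be left out. With no read counts in the file, the effect of depth is unknown.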
